A study of Mus musculus with 6 samples.

Results

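Glycolysis and the citric acid cycle were followed through 34 genes that encode their enzymes, of 23538 genes in the tables. The members were chosen by symbol and cover 16 genes of glycolysis with lactate dehydrogenase, and 18 of the pyruvate dehydrogenase complex with the citric acid cycle. Of the 34, 30 passed the filter on low values (a mean of at least 1 on the scale tested) and 4 did not. Those 4 were Pfkm with 44 counts over all libraries, Ldhb with 25, Aldoc with 11 and Eno1 with 6.

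Glycolysis splits glucose into pyruvate in the cytosol and yields ATP without oxygen. Pyruvate is then either reduced to lactate by lactate dehydrogenase, or carried into mitochondria, where the pyruvate dehydrogenase complex makes acetyl-CoA for the citric acid cycle, whose electrons feed the respiratory chain. Quiescent haematopoietic stem cells are known for relying on glycolysis with low mitochondrial respiration, and their progeny for taking up oxidative metabolism as they divide and differentiate.

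The cells came from bone marrow of wild-type mice and of mice with the genotype Mof -/+. Mof, listed under the symbol Kat8, encodes a histone H4 lysine 16 acetyltransferase. What the changed allele lacks is not stated in the labels, and neither are the age, sex or number of the animals. From each genotype 15 cells per sort were taken of 6 populations and made into CEL-Seq2 libraries, 3 per population and genotype and 36 in all. Haematopoietic stem cells (HSC) were sorted as CD34- Flt3- CD48- CD150+ cells of the LSK gate, which holds Lin-, Sca-1+, cKit+ cells. The multipotent progenitors MPP2 (CD150+), MPP3 (CD150-, Flt3-) and MPP4 (CD150-, Flt3+) were CD34+ CD48+ cells of the same gate. Common myeloid progenitors (CMP, CD34+ with low CD16/32) and megakaryocyte-erythroid progenitors (MEP, CD34- CD16/32-) lay outside it, as Lin- Sca-1- cKit+ IL7r- cells. The libraries were submitted as 6 samples, called pools here: one of HSC, one of MPP2 to MPP4 and one of CMP and MEP for each genotype. The sample titles do not say whether the libraries of a pool were handled together. Pool and genotype therefore cannot be told apart, and neither can pool and the step from the LSK gate to CMP and MEP. Whether the 3 libraries of a group are separate animals is not stated, and the p-values given here measure the scatter among libraries alone, part of which may be technical.

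Total gene counts ran from 1577 to 123765 per library (median 41227). They were lower in the 24 LSK libraries (median 32830) than in the 12 CMP and MEP libraries (median 76080), and 6 LSK libraries held at most 12339 counts. Kat8 itself was near the detection limit, with 12 counts over 18 wild-type libraries (18.3 CPM, the counts of a gene per 1000000 gene counts) and 11 counts over 18 heterozygous ones (9.86 CPM), which is too few to check the genotype labels. Ly6a, the gene of Sca-1, followed the gates, with a median of 40.2 CPM (0 to 240.7) in LSK libraries and values of 0 to 8.08 in CMP and MEP. The 8 mature neutrophil genes summed to over 10000 CPM in 7 libraries, although the gates exclude lineage-positive cells: 4 of wild-type MPP2, MPP3 and MPP4, and 3 of MEP. Sums, ratios, shares and tests are also given without these 7 libraries where they bear on a main result, an alternative added after seeing the data.

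Since each CEL-Seq2 count stands for the 3' end of a transcript, levels in CPM do not depend on transcript length and can be set side by side across genes. Gapdh, glyceraldehyde-3-phosphate dehydrogenase, had the highest level of the members, a mean of 1050 CPM over the 12 groups of population and genotype. Ogdh, the first subunit of the 2-oxoglutarate dehydrogenase complex, followed with 579 CPM. Pkm (pyruvate kinase) had 514 CPM and Ldha (lactate dehydrogenase A) 429 CPM. Gpi1 (glucose-6-phosphate isomerase) had 292 CPM, Aldoa (aldolase A) 224, Mdh2 (mitochondrial malate dehydrogenase) 189, Pgk1 (phosphoglycerate kinase) 183, Cs (citrate synthase) 179 and Pgam1 (phosphoglycerate mutase) 178. The list thus ranged over more than 2 orders of magnitude down to Eno1 at 2.62 CPM. Within the 12 groups the order was unsteady: Ogdh ran from 423 CPM in wild-type MPP2 to 796 in wild-type MPP3 and Pkm from 300 in heterozygous HSC to 679 in wild-type MPP3, so that their ranges overlapped.

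The low Eno1 value comes from a gene whose 3' end is nearly repeated elsewhere. Of the 30-base words in the last 500 bases of its annotated transcripts, 84.7% also occur in transcripts of other genes, most in Eno1b. Lines named Gm5506, a synonym of Eno1b, held 20 and 5 counts. The level of enolase is therefore uncertain. The same holds for Gapdh, with 95.1% of such words shared, and in part for Ldhb (36.1%) and Aldoa (25.3%, most with Aldoart1, which had 1 count). The 3' end of Idh3b lies within 500 bases of Nop56 (898 counts) on the opposite strand, and those of Pfkp, Tpi1, Gapdh and Pdha1 within 500 bases of Pitrm1, Spsb2, Iffo1 and Map3k15. Whether strand was used in counting is not given, so the counts of these neighbours may be mixed.

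Transcripts of the 2 pathways took up a larger share of the counts in CMP and MEP than in the LSK populations. All members together summed to 4943 ± 1148 CPM in LSK libraries (SD, n = 24, 2536 to 6450) and to 6626 ± 685 CPM in CMP and MEP libraries (SD, n = 12, 5543 to 7926). The 2 ranges overlapped between 5543 and 6450 CPM. Both parts took a share in this. Glycolysis with lactate dehydrogenase went from 2964 ± 939 to 4098 ± 652 CPM, and pyruvate dehydrogenase with the cycle from 1979 ± 383 to 2528 ± 260 CPM (SD, same libraries). By population, the glycolytic sum averaged 2528 CPM for MPP2, 3003 for HSC, 3045 for MPP3, 3280 for MPP4, 3783 for MEP and 4412 for CMP, with SDs of 520 to 1056 CPM (n = 6 each), so that neighbours in this order did not differ beyond their spread. Without the 7 libraries rich in mature neutrophil genes the sum over all members was 4956 ± 1121 CPM in LSK (SD, n = 20) and 6745 ± 680 CPM in CMP and MEP (SD, n = 9). In libraries made from 15 cells, more cells with a high level and more RNA per cell cannot be told apart.

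**Figure D1:**
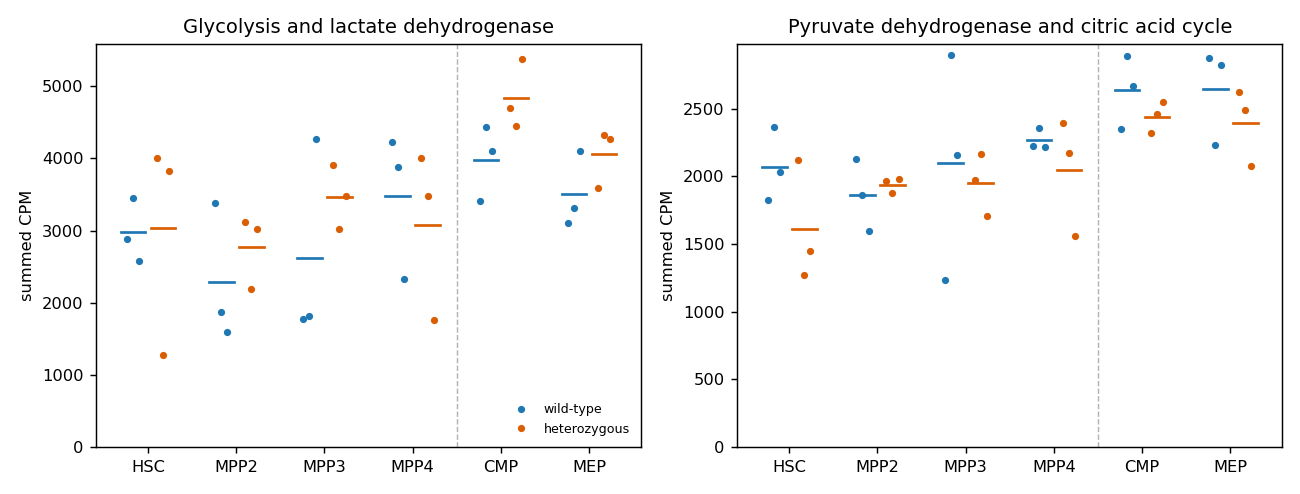
Summed CPM of the 16 glycolysis and lactate dehydrogenase genes (left) and of the 18 pyruvate dehydrogenase and citric acid cycle genes (right). Each point is 1 library, bars are means of 3 libraries, colours are genotypes, and the dashed line parts the LSK populations from CMP and MEP, whose means are higher in both panels.

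The gene-by-gene test of CMP and MEP against the mean of the 4 LSK populations asked which enzymes carried this difference. By limma on log2(count rescaled to a common total + 1), with Benjamini-Hochberg adjustment over 6501 genes, 5 of 30 members were higher and 0 were lower. Over all genes tested 6.12% were called higher and 1.71% lower, 7.83% in all. The estimate was above 0 for 28 of 30 members, against 72.5% of all genes tested, and the median estimate was 0.70 for members and 0.26 for all genes. Because zeros are more frequent in the shallower LSK libraries, log2 estimates of low genes can lie above the ratio of counts. On counts pooled over libraries, which weight libraries by depth, the median log2 ratio was 0.49 for members and -0.01 for all genes tested, and 26 of 30 members against 49.3% of all genes lay above 0.

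**Figure D2:**
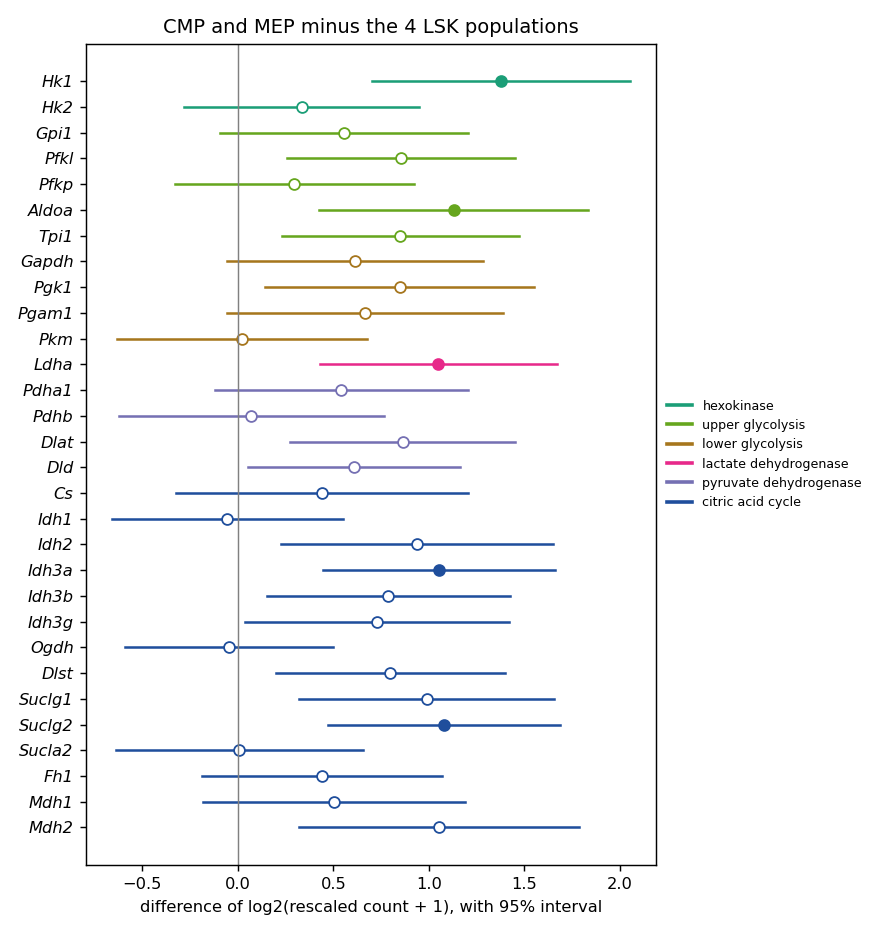
Difference between CMP with MEP and the 4 LSK populations for the 30 members tested, on the log2(rescaled count + 1) scale, with 95% intervals from limma. Filled points are the 5 members with an adjusted p under 0.05 (Hk1, Aldoa, Ldha, Idh3a, Suclg2), and colours mark the step of the pathway.

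Hexokinase opens glycolysis by phosphorylating glucose, and Hk1, its widely expressed form that binds mitochondria, showed the largest estimate. Hk1 had a lowest value of 0, a median of 61.8 and a highest value of 243 CPM in the 24 LSK libraries, and 121, 195 and 293 CPM in the 12 CMP and MEP libraries. All 12 CMP and MEP libraries lay above the LSK median, 17 of 24 LSK libraries lay below all of them, and 6 LSK libraries had no Hk1 count. The log2 difference was 1.38 (SE 0.34, adjusted p = 0.0063 by limma), and the ratio of pooled counts was 1.97 (169 counts against 80, exact 95% interval 1.502 to 2.605, counting error only). Within the LSK gate, the 3 wild-type MPP3 libraries had no Hk1 count, at low totals of 7304, 2764 and 20839 gene counts. The 6 MPP4 libraries lay between 26.2 and 75.9 CPM. MEP had the highest level, 176 to 293 CPM, with CMP at 121 to 224 CPM.

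Hk2, the regulated form, was not called. Its median was 49.0 CPM in LSK and 42.6 CPM in CMP and MEP libraries, its pooled ratio was 0.81 (exact 95% interval 0.54 to 1.19), and the limma estimate of 0.33 (SE 0.31) had an adjusted p of 0.529. In wild-type libraries alone the Hk2 estimate was 1.11, beside 1.58 for Hk1. In heterozygous libraries alone it was -0.45, beside 1.18 for Hk1. The difference between Hk1 and Hk2 was not tested. Hk1 gave 57.6% of Hk1 and Hk2 counts in LSK libraries (exact 95% interval 48.9 to 65.9) and 76.8% (70.7 to 82.2) in CMP and MEP. MEP stood highest with 85.5% (77.5 to 91.5), and with 89.3% (78.1 to 96.0) without its libraries rich in mature neutrophil genes. CMP had 68.2% (58.6 to 76.7), MPP2 68% (46.5 to 85.1), HSC 62.9% (44.9 to 78.5), MPP3 53.3% (37.9 to 68.3) and MPP4 50% (32.4 to 67.6), so that the CMP share lay inside the intervals of HSC and MPP2 and near the MPP2 value. These shares pool both genotypes, and their intervals cover counting error only. Within libraries that had at least 5 such counts the share ran from 26.7 to 95.7%.

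In the upper part of glycolysis, Aldoa was called higher. Aldoa cleaves fructose 1,6-bisphosphate. It had 0, 148 and 333 CPM (lowest, median, highest) in LSK libraries and 209, 342 and 438 CPM in CMP and MEP libraries. The groups overlapped, with 6 of 12 CMP and MEP libraries above every LSK library and 17 of 24 LSK libraries below all CMP and MEP ones. The log2 difference was 1.13 (SE 0.35, adjusted p = 0.0357, limma) and the pooled ratio 1.85 (1.52 to 2.26). The other 4 members tested in this part had positive estimates that did not pass: Pfkl (phosphofructokinase, liver type) 0.85, Tpi1 (triosephosphate isomerase) 0.85, Gpi1 0.55 and Pfkp (phosphofructokinase, platelet type) 0.30, with adjusted p of 0.0616, 0.0746, 0.289 and 0.594.

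No member of the lower part was called by limma. Pgk1, which makes the first ATP of the pathway, had an estimate of 0.85 (adjusted p = 0.120). Pgam1 had 0.67 (0.249) and Gapdh 0.61 (0.255). Pkm, the last enzyme of glycolysis, had an estimate of 0.02 (SE 0.33, adjusted p = 0.976, 95% interval -0.63 to 0.68). Its median was 500 CPM in LSK and 557 CPM in CMP and MEP libraries, and its pooled ratio was 0.89 (0.78 to 1.02).

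Ldha, which reduces pyruvate to lactate, was called higher. It had 0, 317 and 713 CPM (lowest, median, highest) in LSK libraries and 323, 661 and 889 CPM in CMP and MEP libraries. All 12 CMP and MEP libraries lay above the LSK median and 12 of 24 LSK libraries below all of them. The log2 difference was 1.05 (SE 0.31, adjusted p = 0.0254, limma) and the pooled ratio 1.64 (1.43 to 1.88). Over both genotypes HSC stood nearest to CMP and MEP in this gene, with a mean of 505 CPM beside 357 CPM in MPP4 (48.8 to 603 CPM). In wild type alone MPP4 stood nearer, with a mean of 442 CPM against 375 CPM in HSC. The 3 wild-type HSC libraries had 413, 484 and 229 CPM and the 3 heterozygous ones 713, 634 and 559 CPM, of which the second rests on 1 count. MPP2 libraries had 88.5 to 434 CPM and MPP3 libraries 0 to 443 CPM. HSC against the 3 MPP populations gave an estimate of 1.02 (SE 0.41) with an adjusted p of 0.341 by limma.

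**Figure D3:**
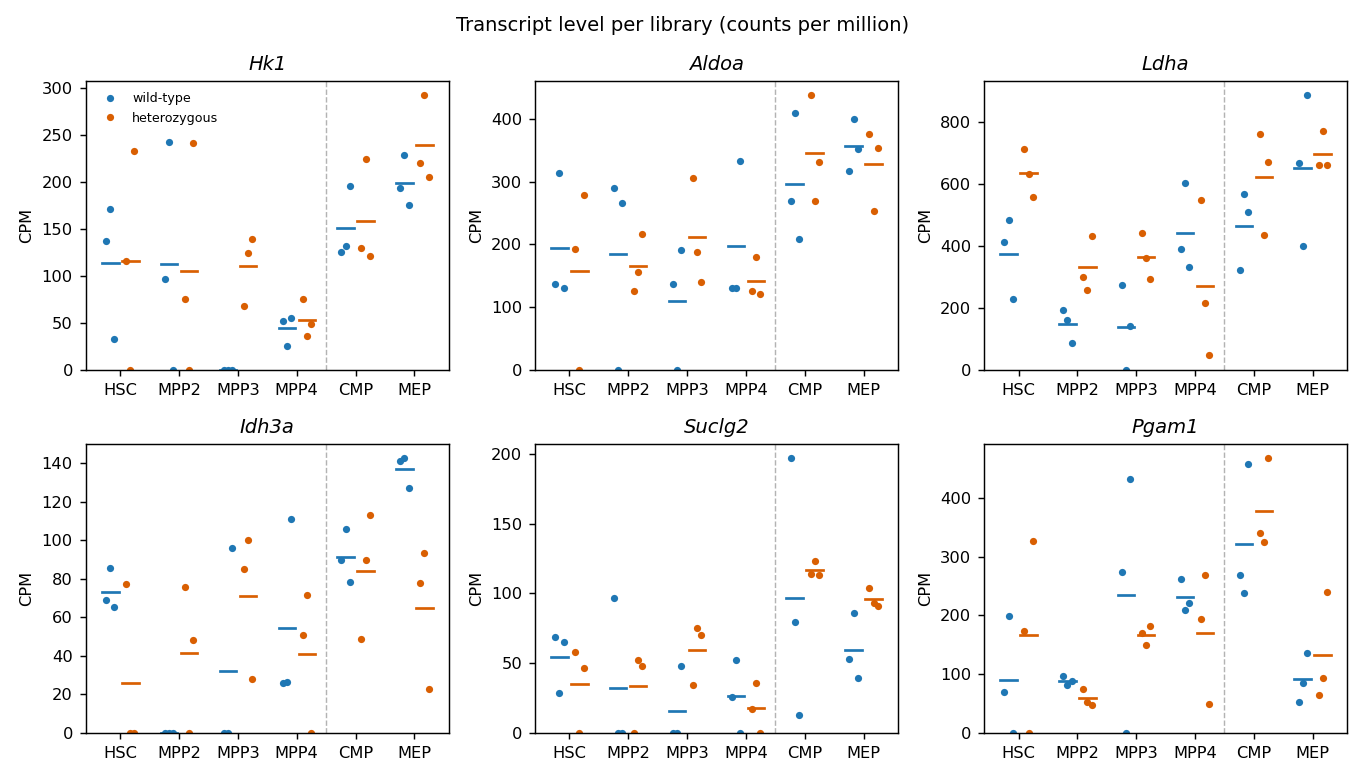
Level in CPM of the 5 members called higher in CMP and MEP than in the LSK populations, and of Pgam1. Each point is 1 library, bars are means of 3 libraries, colours are genotypes, and the dashed line parts LSK populations from CMP and MEP. Pgam1 is high in CMP (238 to 469 CPM) and low in MEP (52.8 to 239 CPM).

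The 4 genes of the pyruvate dehydrogenase complex did not pass. Dlat, its acetyltransferase core, came nearest with 0.86 (SE 0.29, adjusted p = 0.0558) and a pooled ratio of 1.90 (51 counts against 25, exact 95% interval 1.16 to 3.21). Dld, its dihydrolipoamide dehydrogenase, had 0.61 and Pdha1, its alpha subunit, 0.54. Pdhb, the beta subunit, had 0.07 (adjusted p = 0.927).

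In the citric acid cycle, Idh3a and Suclg2 were called. Idh3a is the catalytic subunit of the NAD-dependent isocitrate dehydrogenase. It had 0, 38.1 and 111 CPM (lowest, median, highest) in LSK libraries and 22.8, 91.5 and 143 CPM in CMP and MEP libraries, with 9 LSK libraries at 0. The log2 difference was 1.05 (SE 0.30, adjusted p = 0.0214, limma) and the pooled ratio 1.69 (85 counts against 47, 1.17 to 2.46). Its partner subunits Idh3b and Idh3g had estimates of 0.79 and 0.73 (adjusted p = 0.107 and 0.179).

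Suclg2 is the beta subunit of succinate-CoA ligase that gives the enzyme its GTP-forming activity. It had 0, 35.0 and 96.8 CPM in LSK libraries and 13.1, 92.2 and 198 CPM in CMP and MEP libraries. The log2 difference was 1.08 (SE 0.30, adjusted p = 0.0183, limma) and the pooled ratio 2.28 (83 counts against 34, 1.511 to 3.502), the highest pooled ratio of the members. Sucla2, the beta subunit of the ATP-forming enzyme, had an estimate of 0.01 (SE 0.32, adjusted p = 0.990). Suclg2 accordingly gave 48.6% of the counts of both beta subunits in LSK libraries (exact 95% interval 36.4 to 60.8) and 64.8% (55.9 to 73.1) in CMP and MEP, intervals that overlap. By population the share was highest in MPP3, an LSK population, with 77.8% (52.4 to 93.6, 18 counts). MEP had 66%, CMP 64.1%, HSC 47.4%, MPP2 36.4% and MPP4 31.8%, and wild-type MEP alone had 50%. The alpha subunit Suclg1, shared by both enzymes, had 0.99 (adjusted p = 0.0525).

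The remaining cycle enzymes did not pass. Mdh2 had 1.05 (SE 0.37, adjusted p = 0.0621), Idh2 (mitochondrial, NADP-dependent) 0.94 and Dlst (the succinyltransferase of the oxoglutarate dehydrogenase complex) 0.80. Mdh1 (cytosolic malate dehydrogenase) had 0.50, Fh1 (fumarase) 0.44 and Cs 0.44. Ogdh at -0.05 (SE 0.27, adjusted p = 0.936) and Idh1 (cytosolic, NADP-dependent) at -0.06 were the only estimates below 0 in this fit. Ogdh was also the member with counts in all 36 libraries, 235 to 1268 CPM in LSK and 388 to 700 CPM in CMP and MEP.

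The count-based test drew the line through other members. edgeR's quasi-likelihood test on the recovered counts kept 1633 genes and 13 members, and called 6 of 13 members higher and 0 lower. Its share over all genes was 17.9% called higher and 11.7% lower, 29.6% in all. Ldha (0.98, adjusted p = 0.000340) and Aldoa (0.91, 0.00116) were called by both tests. Tpi1 (0.72, 0.00422), Mdh2 (0.79, 0.0111), Suclg1 (0.71, 0.0190) and Pgk1 (0.57, 0.0403) were called by edgeR alone, while Hk1, Idh3a and Suclg2 were below its count filter and not tested by it. The 4 genes called by edgeR alone had medians in LSK and in CMP and MEP libraries of 159 and 241 CPM (Tpi1), 121 and 248 CPM (Mdh2), 107 and 193 CPM (Suclg1), and 168 and 230 CPM (Pgk1), with overlapping ranges. Pkm (-0.14, adjusted p = 0.611) and Ogdh (0.04, 0.916) stayed near 0 there too.

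Leaving out the 7 libraries rich in mature neutrophil genes, an alternative added after seeing the data, left 1 library each of wild-type MPP3 and MEP. The limma estimates were then 1.43 for Hk1, 1.45 for Aldoa, 1.36 for Ldha, 1.32 for Idh3a, 1.17 for Suclg2 and 1.04 for Gapdh. The median estimate was 0.76 for members and 0.32 for all genes tested. On pooled counts without these 7 libraries the ratios were 1.85 for Hk1, 1.84 for Aldoa, 1.52 for Ldha, 1.75 for Idh3a and 2.45 for Suclg2. Without the filter on low values limma called 4 of 34 members higher, beside 385 of 13939 genes, and Aldoa was not called (adjusted p = 0.0693). Leaving out the 6 shallow libraries, the estimates were 1.27 for Hk1, 0.77 for Aldoa, 0.83 for Ldha, 0.84 for Suclg2, 0.96 for Suclg1 and 0.69 for Pgk1. Idh3a had 0.67 there and was no longer called. The medians were 0.44 for members and 0.12 for all genes tested. With 1 library left out at a time, Hk1 was called in 36 of 36 fits, Idh3a and Suclg2 in 35, Ldha in 31 and Aldoa in 26. Idh3a was lost without heterozygous MEP replicate 2 and Suclg2 without wild-type CMP replicate 1. Ldha was lost without wild-type CMP replicate 2 or 3, heterozygous CMP replicate 1 or 3, or wild-type MEP replicate 3. Aldoa was lost without heterozygous MPP3 replicate 3, without wild-type CMP replicate 1 or 2, heterozygous CMP replicate 1 or 3, or without any 1 MEP library other than heterozygous replicate 2. Within 1 genotype, each with 18 libraries, no member passed, and the estimates, wild type first, were 1.58 and 1.18 for Hk1, 1.24 and 0.86 for Ldha, 1.19 and 1.07 for Aldoa, 1.41 and 0.69 for Idh3a, and 0.89 and 1.27 for Suclg2.

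Other cell type genes moved with the same contrast. The myeloid list (Mpo, Elane, Ctsg, Prtn3, Ms4a3) had a mean summed level of 207 CPM in LSK (0 to 1344) and 2273 CPM in CMP and MEP libraries (106 to 6601). The erythroid list averaged 410 CPM in LSK (0 to 3097) and 1434 CPM in CMP and MEP (303 to 2891), and the lymphoid priming list 1193 CPM (0 to 5536) and 93.9 CPM (0 to 226). The mature B cell list averaged 2051 CPM in LSK (0 to 6375) and 528 CPM in CMP and MEP (0 to 5001). The proliferation list (Mki67, Top2a, Ccnb1, Cdk1, Pcna, Mcm5) had medians of 1882 CPM in LSK and 1343 CPM in CMP and MEP. Their part in the differences of the enzymes was not tested.

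Of 65 further genes of these pathways and their regulators, 63 were in the tables and 32 were tested. In the same contrast 3 of 32 were higher and 0 lower by limma, beside 6.12% of all genes tested called higher and 1.71% lower. The 3 were Myc, a transcription factor that activates many glycolytic genes (1.47, SE 0.37, adjusted p = 0.00827), Hk3, the hexokinase of myeloid cells (1.18, SE 0.33, adjusted p = 0.0162), and Sdhb, the iron-sulphur subunit of succinate dehydrogenase (1.17, SE 0.29, adjusted p = 0.00867). Sdhb was also higher in MPP4 than in MPP2 and MPP3 (1.91, SE 0.42, adjusted p = 0.0126, limma), 1 of 32 beside 0.261% of all genes tested.

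Since 5 members were called together, the stretches before their transcription starts were read for ACGTG, the core of the site bound by hypoxia-inducible factors, for GCGTG, a variant of it, and for CACGTG, the E-box bound by Myc among others, on either strand. CACGTG contains ACGTG. RefSeq promoters of build GRCm38.p6 (250 bases before to 50 after each start) were listed for 33 of 34 members, and Idh3a was not matched. ACGTG lay in a promoter of 14 of 33 members (42.4%) and of 21.8% of the 27025 genes with one (19.6% of all promoters, since a gene can have several). GCGTG lay in 19 of 33 (57.6%) and in 35.2% of genes, and CACGTG in 3 of 33 (9.09%) and in 8.09% of genes. These genes include many that were not tested here, so the shares are not matched for expression. Of the members with estimates near 0, Pkm, Ogdh and Pdhb held ACGTG, and Idh1 and Sucla2 did not. Of those called by edgeR alone, Pgk1 held it, and Tpi1, Mdh2 and Suclg1 did not. The 250 bases before a start are shown for Ldha, which holds the motif most often among the called members, for Aldoa, and for Suclg2, which holds none. Capitals mark ACGTG or its reverse complement, and each stretch reads 5′ to 3′ on the strand of the gene.

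Ldha, chr7:46845554-46845803, plus strand: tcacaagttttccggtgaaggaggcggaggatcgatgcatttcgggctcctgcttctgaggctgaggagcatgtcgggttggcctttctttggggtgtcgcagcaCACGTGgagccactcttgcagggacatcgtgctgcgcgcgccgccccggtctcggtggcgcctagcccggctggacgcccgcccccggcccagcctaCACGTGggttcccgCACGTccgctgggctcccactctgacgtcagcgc
Aldoa, chr7:126799255-126799504, minus strand: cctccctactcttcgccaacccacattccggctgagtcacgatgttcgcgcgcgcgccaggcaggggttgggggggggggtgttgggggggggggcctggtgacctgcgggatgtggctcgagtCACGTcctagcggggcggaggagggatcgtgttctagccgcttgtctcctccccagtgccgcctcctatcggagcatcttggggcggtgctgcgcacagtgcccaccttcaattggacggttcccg
Suclg2, chr6:95718847-95719096, minus strand: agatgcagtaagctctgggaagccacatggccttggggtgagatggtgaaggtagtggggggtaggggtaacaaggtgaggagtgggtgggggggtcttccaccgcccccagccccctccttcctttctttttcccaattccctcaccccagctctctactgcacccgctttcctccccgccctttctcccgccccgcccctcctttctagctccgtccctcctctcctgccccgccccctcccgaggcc

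In Ldha the capitals open 145, 48 and 34 bases before this start, the first and the second being whole CACGTG stretches. A second Ldha start further downstream had none. Aldoa had 1 stretch before the start shown, and its most upstream listed start had none. Hk1 held ACGTG only in the 50 bases after 1 of its starts. These are matches of letters in a window, not binding sites. The genes themselves lie at chr10:62268855-62379920 (Hk1), chr7:126795234-126800994 (Aldoa), chr7:46842274-46855627 (Ldha), chr9:54586511-54604662 (Idh3a) and chr6:95473009-95718858 (Suclg2) in the same build.

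Among populations of the same pool, 1 member stood out. Pgam1, which converts 3-phosphoglycerate to 2-phosphoglycerate, had 269, 238 and 458 CPM in wild-type CMP and 341, 325 and 469 CPM in heterozygous CMP. In MEP it had 52.8, 85.7 and 137 CPM in wild-type and 64.8, 93.2 and 239 CPM in heterozygous libraries. The 6 CMP libraries lay above 5 of 6 MEP libraries, and heterozygous MEP replicate 3, the highest of MEP, lay just above the lowest of CMP. The pooled ratio was 2.99 (176 counts against 53, exact 95% interval 2.19 to 4.14), and 5.08 (176 counts against 15, 3.00 to 9.28) without wild-type MEP replicates 2 and 3 and heterozygous MEP replicate 3, which are rich in mature neutrophil genes. edgeR called it (log2 difference 1.57, adjusted p = 0.0163), 1 of 13 members beside 0.674% of all genes (11 of 1633). limma, which called 0 of 30 members and 0.0154% of all genes in this contrast (1 of 6501, with 96 genes and 1 member at an unadjusted p under 0.05), gave 1.55 (SE 0.59, adjusted p = 1). The estimate was 1.588 in wild-type and 1.504 in heterozygous libraries, and 2.04 without the libraries rich in mature neutrophil genes, of which 3 are MEP. Pkm lay in the same direction on pooled counts, 603 CPM in CMP and 376 CPM in MEP (ratio 1.61, 1.32 to 1.96), and was not called by either test.

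The test across all 6 populations at once called 0 of 30 members by limma (269 of 6501 genes, 4.14%, with 11 members at an unadjusted p under 0.05), Hk1 having the lowest adjusted p (0.0565) and Ldha the next (0.0700). edgeR called 4 of 13 members, Pgam1, Ldha, Aldoa and Tpi1, beside 29.3% of its genes. HSC against the 3 MPP populations gave 0 of 30 members by limma (0.446% of genes called, 3 members at an unadjusted p under 0.05) and 0 of 13 by edgeR (1.29%). Besides Ldha, the limma estimates with an unadjusted p under 0.05 were Pdhb (-1.13, adjusted p = 0.344) and Pkm (-0.93, adjusted p = 0.440). MPP4 against MPP2 and MPP3 gave 0 of 30 members (0.261% of genes, 2 members at an unadjusted p under 0.05, Dld with 1.18 and Fh1 with 1.15) and 0 of 13 by edgeR (4.35%). Without the libraries rich in mature neutrophil genes, wild-type MPP3 kept 1 library. The median estimate in this last contrast was then 0.56 for members and 0.36 for all genes tested.

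The lowest Ldha share of lactate dehydrogenase counts was that of HSC, on few Ldhb counts. Ldhb, the form that favours lactate oxidation, had 25 counts in all libraries, of which 10 were in HSC: 3, 3 and 1 in the wild-type and 1, 0 and 2 in the heterozygous libraries. Ldha gave 89.6% of Ldha and Ldhb counts in HSC (exact 95% interval 81.7 to 94.9), 97.6% in MPP2 (87.1 to 99.9), 95.3% in MPP3 (88.4 to 98.7), 97.6% in MPP4 (93.2 to 99.5), 98.2% in CMP (95.8 to 99.4) and 99.4% in MEP (97.7 to 99.9). The HSC interval overlapped those of the MPP populations. Within HSC the share was 83.7% (69.3 to 93.2) in wild-type and 94.3% (84.3 to 98.8) in heterozygous libraries, and wild-type MPP2 had 83.3% on 6 counts. The pooled Ldhb level was 58.9 CPM in HSC and 11.7 CPM in the MPP populations, a ratio of 5.05 (10 counts against 8, 1.79 to 14.7). Aldoa gave 97.6% of aldolase counts, with 11 for Aldoc, and Idh2 79.9% of Idh1 and Idh2 counts. The 3 phosphofructokinase genes shared their counts as 47.6% Pfkl, 32.9% Pfkp and 19.6% Pfkm over all libraries.

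**Figure D4:**
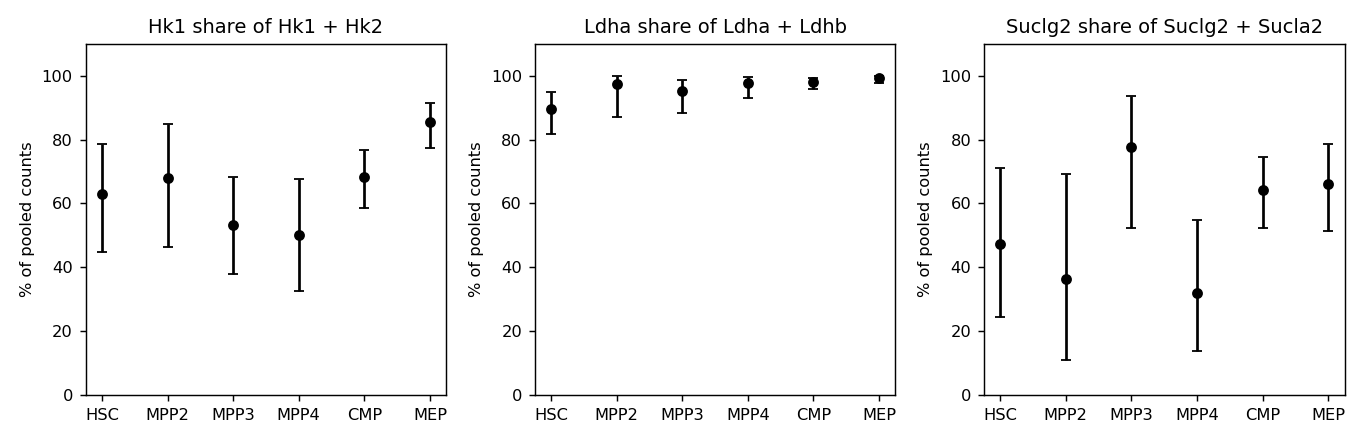
Share of pooled counts of 6 libraries per population that came from Hk1 (of Hk1 and Hk2), Ldha (of Ldha and Ldhb) and Suclg2 (of Suclg2 and Sucla2). Points are percent of counts and bars exact 95% binomial intervals, which cover counting error only; MEP has the highest Hk1 share (85.5%) and HSC the lowest Ldha share (89.6%).

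The genotype comparison asked whether these enzymes differ in Mof -/+ cells. Summed over all members, wild-type libraries had 5402 ± 1264 CPM (SD, n = 18) and heterozygous ones 5606 ± 1342 CPM (SD, n = 18), a difference smaller than the spread. The 2 parts lay in opposite directions, each by less than the spread. Glycolysis with lactate dehydrogenase had 3140 ± 954 CPM in wild-type and 3543 ± 1037 CPM in heterozygous libraries, and pyruvate dehydrogenase with the cycle 2262 ± 462 and 2062 ± 386 CPM (SD, same libraries). The glycolytic mean was higher in heterozygous libraries in 5 of 6 populations, the exception being MPP4 (3480 CPM in wild-type, 3081 in heterozygous). The mean of the other part was lower in 5 of 6, the exception being MPP2 (1862 and 1938 CPM). Averaged over the 6 populations, limma on log2(deposited value + 1) called 0 of 30 members (5 of 6444 genes, 0.0776%), with 4 members at an unadjusted p under 0.05. edgeR called 0 of 13 (31 of 1633 genes, 1.90%). The members' median estimate was 0.14, beside 0.12 for all genes tested, and 20 of 30 members against 67.3% of all genes lay above 0.

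The 4 members were Pdha1 (0.65, SE 0.26, adjusted p = 0.346), Hk2 (0.58, SE 0.25, 0.379), Sucla2 (-0.57, SE 0.25, 0.397) and Pfkp (0.52, SE 0.26, 0.454). Hk2 had a lowest value of 0, a median of 21.9 and a highest value of 143 CPM in wild-type libraries and 0, 52.9 and 187 CPM in heterozygous ones, so that the groups overlapped. On pooled counts, which weight libraries by depth, Cs had a heterozygous to wild-type ratio of 0.569 (exact 95% interval 0.449 to 0.719, counting error only) and Dlst 0.560 (0.407 to 0.770), singled out after their values were seen. Their limma estimates were -0.40 (SE 0.28, adjusted p = 0.662) and -0.43 (SE 0.23, adjusted p = 0.497). The pooled ratios also mix populations, and CMP and MEP give a larger part of the wild-type than of the heterozygous counts. Both genes had more pooled CPM in CMP and MEP than in LSK libraries (ratios 1.32 for Cs and 1.75 for Dlst). The part of this mix in the genotype ratios was not tested. Pdha1 had 0, 83.3 and 196 CPM in wild-type and 0, 123 and 202 CPM in heterozygous libraries.

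**Figure D5:**
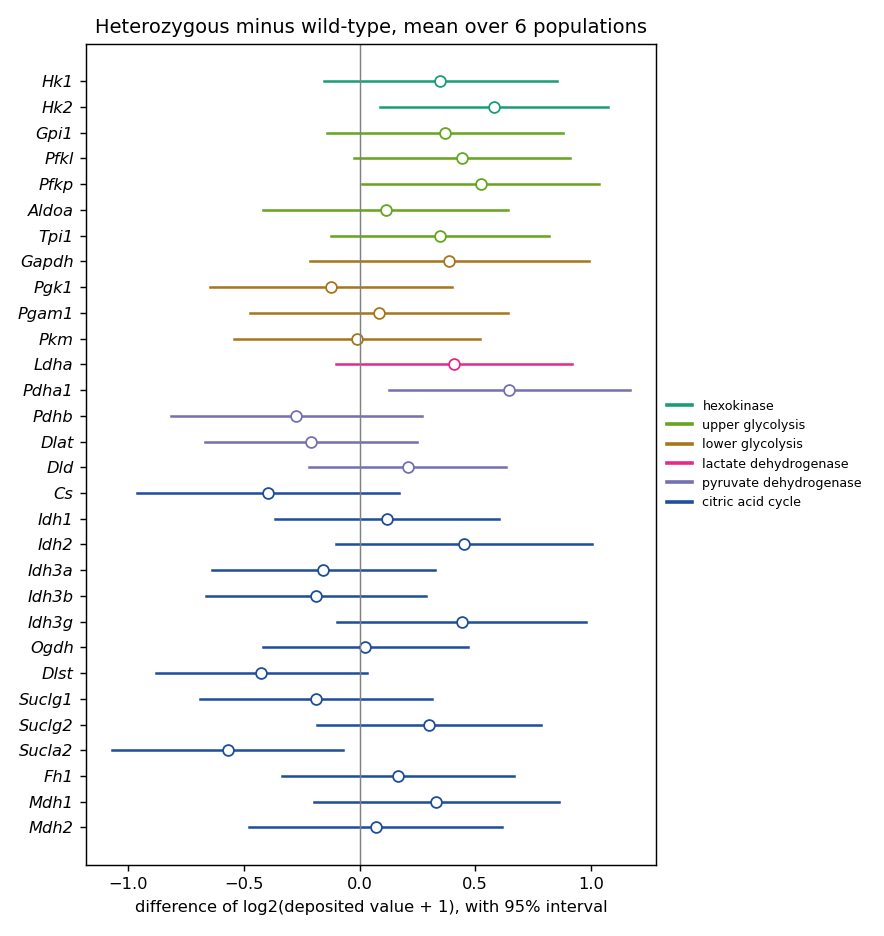
Heterozygous minus wild-type difference, averaged over the 6 populations, for the 30 members tested, on the log2(deposited value + 1) scale with 95% intervals from limma. No point is filled, since no member had an adjusted p under 0.05; colours mark the step of the pathway.

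Within single populations limma called 0 of 30 members in each: 0.0155% of genes were called for HSC, 0.0776% for MPP2, 0.31% for MPP3, and 0.031% for each of MPP4, CMP and MEP, with 1 to 7 members per population at an unadjusted p under 0.05. edgeR called 0 of 13 members in each (0, 1.10, 0.184, 0.122, 0.122 and 0.122% of its genes, in the same order). The interaction of genotype with population gave 0 of 30 members by limma (0.031% of genes, 1 member at an unadjusted p under 0.05) and 0 of 13 by edgeR (1.10%). No member's genotype difference was thus shown to vary between populations.

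Counted by CPM, the 3 heterozygous libraries lay all above or all below the 3 wild-type ones for few members: HSC 2 of 30 (7.29% of all genes tested), MPP2 8 (14.5%), MPP3 6 (23.1%), MPP4 1 (9.84%), CMP 3 (12.6%) and MEP 5 (12%). The share was above that of all genes tested in MPP2 and MEP and below it in the other 4 populations, and the 3 wild-type MPP2 libraries and 2 of the 3 wild-type MPP3 libraries are among the 6 shallow ones. Pfkp in MEP had 17.6, 0 and 19.5 CPM in wild-type and 103.7, 66.57 and 102.6 CPM in heterozygous libraries, an estimate of 2.02 (SE 0.63) with an adjusted p of 0.605. Its share of phosphofructokinase counts was 13.6% (exact 95% interval 2.91 to 34.9, 22 counts) in wild-type and 48.9% (33.7 to 64.2, 45 counts) in heterozygous MEP. Without the libraries rich in mature neutrophil genes, 1 wild-type MEP library with 4 such counts was left, so the comparison cannot be made there. Cs in CMP had 323.1, 264.1 and 248.6 CPM in wild-type and 81.1, 157 and 154 CPM in heterozygous libraries, with an estimate of -1.11 (SE 0.69) and an adjusted p of 1. Both were chosen after their values were seen. Ldha was among the members whose libraries did not overlap in 3 populations. Its heterozygous and wild-type means were 636 and 375 CPM in HSC, 332 and 148 CPM in MPP2, and 366 and 139 CPM in MPP3. The wild-type means of MPP2 and MPP3 rest on 5 Ldha counts each, and heterozygous HSC replicate 2 on 1. In MPP4 the means lay the other way, 271 and 442 CPM, and in MPP4, CMP and MEP the libraries overlapped. Pooled over all libraries, which mixes populations in unlike proportions, the heterozygous to wild-type ratio of Ldha was 1.02 (exact 95% interval 0.89 to 1.17). Hk2 libraries did not overlap for MPP2 (75.7 and 0 CPM), MPP3 (102 CPM against 1 count in all for wild type) and MPP4 (75.8 and 8.74 CPM). Ldha and Hk2 were also singled out here after their values were seen.

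MPP3 was the population in which the genotype result moved most with the libraries used. The members' median estimate was 0.81 and that of all genes 0.56. Leaving out wild-type MPP3 replicate 3 left wild-type MPP3 libraries of 7304 and 2764 gene counts. limma then called Gapdh, Mdh1, Pdha1 and Tpi1 higher in heterozygous MPP3, and without heterozygous HSC replicate 2 it called Tpi1. The share of all genes called in each of these fits is not given here, so the calls are not read as particular to the members. Over the 36 fits with 1 library left out, 1 to 399 genes and 0 to 4 members were called in MPP3. Without the 7 libraries rich in mature neutrophil genes, a single wild-type MPP3 library of 2764 counts was left, which is assumed to vary like the other groups. The medians were then 1.30 for members and 1.05 for all genes. TMM scaling was computed over all libraries, and its use for genotype differences within populations was chosen after seeing the data. It moved the median of all genes in MPP3 to 1.01. With this scaling limma called Hk1, Ldha, Pdha1 and Tpi1 higher, beside 574 of 6193 genes. Without the 6 shallow libraries it called 0 of 31 members, and the medians were 0.10 for members and 0.16 for all genes.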

How the data were processed

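CEL-Seq2 libraries of 36 sorts were analysed. The submitters' processing notes name BWA 0.6.2-r126 and mm10. The counter, the annotation, strand use and molecular identifier handling were not given in the sources used here. As deposited by the authors, each library has a signal value per gene. Each value was found to be a whole count times 1 constant per library (100% whole, tolerance 0.01 counts), and counts were recovered from it. Spike-ins were kept out of totals. The wild-type MEP table had no name on 92 lines after the first 6842, and names were restored by position (rank correlation across genes with a wild-type CMP library 0.786, against 0.284 as deposited). Per-sample columns left unused numbered 0.

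Genotypes were compared on log2(deposited value + 1). Populations, which the authors scaled apart, were compared on log2(x + 1), with x the counts rescaled to a total of 41227. limma 3.58.1 (R 4.3.3, intensity trend) was fitted with a mean for every combination of population and genotype, for genes with a mean of at least 1, with Benjamini-Hochberg adjustment over all genes tested and a threshold of 0.05. edgeR 4.0.16 on the recovered counts was the alternative. Both fits of CMP and MEP against LSK were first run on simulated counts. Levels are CPM; intervals are exact, at 95%, and cover counting error only. Other alternatives were a pseudocount of 0.5, no filter, TMM scaling, leaving out libraries and each genotype alone. Named were members called in any comparison, the 10 with the highest level, and isozymes. Promoters came from RefSeq (GRCm38.p6). Members, lists and tests were chosen with earlier results of these data known.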

Additional observations from a re-analysis of the deposited data

How the results depend on the processing

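Genes called, over all genes tested, changed as follows. For the genotype average (5), edgeR gave 31, leaving out the 6 shallow libraries 2 and leaving out the 7 libraries rich in mature neutrophil genes 23; this last alternative was chosen after seeing the data. Within the populations, summed (32), these last 2 gave 51 and 520, and, also chosen after seeing the data, a pseudocount of 0.5 gave 49, no filter 104 and TMM 667. The interaction (2) gave 29 without a filter, 19 without shallow libraries, 18 by edgeR, 40 with TMM and 124 without neutrophil-rich libraries. The 6-population test (269) gave 171 without a filter, 709 without shallow libraries, 479 by edgeR, 788 with TMM, 69 in wild-type and 141 in heterozygous libraries alone, and 697 without neutrophil-rich libraries. CMP and MEP against LSK (509) gave 1552 with TMM, which moved the median of all genes, 107 in wild type and 70 in heterozygous libraries. HSC against MPP (29) gave 47 without shallow libraries, 19 with TMM, 0 in wild type, 103 in heterozygous libraries and 70 without neutrophil-rich ones. CMP against MEP (1) gave 0 with a pseudocount of 0.5, 5 without a filter, 7 without shallow libraries, 11 by edgeR, 5 with TMM, 0 in wild type and 3 without neutrophil-rich libraries. MPP4 against MPP2 and MPP3 (17) gave 28, 236, 71 and 86 in the same order from no filter to TMM, 1 in wild type, 34 in heterozygous libraries and 149 without neutrophil-rich ones. Members called were 19 with TMM and 0 in either genotype alone for CMP and MEP against LSK (5). For the 6-population test (0) they were 3 without shallow libraries, 4 by edgeR, 10 with TMM and 3 without neutrophil-rich libraries; elsewhere edgeR called 1 for CMP against MEP, and leaving out neutrophil-rich libraries gave 1 for MPP4, 1 for the interaction and 5 within populations, where TMM gave 4.

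With 1 library left out at a time, genes called ran from 4 to 43 (genotype average), 11 to 410 (within populations), 1 to 27 (interaction), 183 to 492 (6 populations), 332 to 760 (CMP and MEP against LSK), 1 to 119 (HSC), 0 to 4 (CMP against MEP) and 9 to 36 (MPP4). Members called ran from 3 to 12 for CMP and MEP against LSK, highest without wild-type MPP3 replicate 3, from 0 to 3 over 6 populations and from 0 to 4 within populations.

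Estimates for CMP and MEP against LSK that changed sign were all of uncalled members. Without shallow libraries they were Hk2 -0.12, Pkm -0.23, Pdha1 -0.0016, Ogdh 0.032 and Mdh1 -0.094. By edgeR they were Pkm -0.14 and Ogdh 0.036, and with TMM Idh1 0.097 and Ogdh 0.37. In wild type they were Pfkp -0.19, Pkm -0.33, Pdhb -0.13, Ogdh 0.12 and Sucla2 -0.40, and in heterozygous libraries Hk2 -0.45 and Idh1 0.18. Without neutrophil-rich libraries they were Pkm -0.35, Idh1 0.11, Ogdh 0.049 and Sucla2 -0.29. With 1 library left out, Pkm ran from -0.16 to 0.14, Pdhb from -0.061 to 0.23, Idh1 from -0.17 to 0.055, Ogdh from -0.11 to 0.018 and Sucla2 from -0.075 to 0.175. Without the filter on low values Aldoa was not called (adjusted p = 0.0693, limma). The cause was not tested.

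The genotype difference in MPP2 could not be fitted without the shallow libraries, which include all 3 of wild-type MPP2, and wild-type MPP3 then has 1 library, assumed to vary like the other groups. No paired analysis was possible because the columns carry only a running number, with none common to any pair of groups. Members with few counts, such as Idh3a and Suclg2, are limited by depth.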
